A study of Mus musculus with 20 samples.

Results

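The resident Kupffer cell markers described here are 10 genes that are commonly used to recognise the macrophages that live in the liver: *Clec4f*, *Vsig4*, *Timd4*, *Cd5l*, *Marco*, *Folr2*, *Cd163*, *Adgre1*, *C1qa* and *C1qb*. They were picked by gene symbol from the 50559 genes of the count table with earlier results of these data known, by a rule that uses no measured value, and each of the 10 had enough counts to be tested in every comparison. RNA came from whole livers of 20 *Cideb* fl/fl mice, 5 in each of 4 groups, and the mice of every group carried the floxed allele. WT livers had received AAV-TBG-GFP and KO livers AAV-TBG-Cre, in which the hepatocyte promoter TBG drives Cre, so that the deletion was directed to hepatocytes and not to Kupffer cells. Both vectors were paired with WD (Western diet) and with CDA-HFD (a choline-deficient, amino acid-defined, high-fat diet). The virus was given at 6 weeks of age, and the published description has 24 weeks of WD and 12 weeks of CDA-HFD where the sample labels state 3 months for either, so that diet cannot be told apart from the time on it or from age.

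Kupffer cells sit inside the liver sinusoids, where they take up bacteria, dying cells, old red cells and lipoproteins from the passing blood. Most of them are seeded before birth and renew themselves, and their identity depends on signals from sinusoidal endothelial cells, stellate cells and hepatocytes. When resident cells are lost in steatohepatitis, monocytes enter from the blood and give rise to macrophages that at first lack *Timd4* and *Clec4f*, or to lipid-associated macrophages. Of the markers, *Clec4f* (a galactose-binding lectin), *Vsig4* (a receptor for complement fragments) and *Timd4* (a receptor for phosphatidylserine on dying cells) are closely tied to the resident state in mouse liver. *Adgre1*, *C1qa* and *C1qb* are expressed by many other macrophages as well.

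The libraries held from 11697049 to 16827147 reads on genes, and levels are given as CPM, the share of these reads scaled by TMM factors over the 20 livers. Counting error was largest for *Cd163* in WT livers on CDA-HFD, which rested on 6 to 24 counts per liver. *Cideb* itself ranged from 4.78 to 7.57 CPM in WT livers on WD, from 0 to 0.389 CPM in KO livers on WD, from 2.22 to 3.83 CPM in WT livers on CDA-HFD and from 0 to 0.399 CPM in KO livers on CDA-HFD. One library stood apart. On the first principal component of the CDA-HFD livers, which held 59.9% of their variance, KO liver 5 lay at -41.7, the other 4 KO livers between 43.3 and 67.0, and the WT livers between -64.5 and -7.76. Its *Cideb* level was 0.06 CPM, which fits its label as a KO liver. Results that rest on this library are given with and without it. It was singled out in these same data as the KO liver that lay among the WT livers. Fits without it therefore favour a difference between KO and WT livers on CDA-HFD, also in the interaction. Their p-values are descriptions and not independent evidence.

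All 10 markers are single protein-coding genes of the mm10 assembly. *Clec4f* lies at chr6:83644542-83656187, *Vsig4* at chrX:96247203-96293438, *Timd4* at chr11:46810800-46844332, *Cd5l* at chr3:87357881-87371073 and *Marco* at chr1:120474538-120505024. *Folr2* lies at chr7:101839988-101857194, *Cd163* at chr6:124304656-124330527 and *Adgre1* at chr17:57358691-57483527. *C1qa* (chr4:136895917-136898803) and *C1qb* (chr4:136880129-136886187) lie near each other on the minus strand. Exons of *Folr2* share 975 of 1546 bases with the antisense transcript *Gm10602*, which had 1 to 9 counts per liver. Whether the counting used the strand is not given in the sources used here, so reads of that pair cannot be told apart with certainty.

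The RefSeq promoter table (GRCm38.p6) held 8 of the 10 markers and not *Adgre1* or *C1qa*. The 250 bases before the start site are printed for *Cd163*, the marker with the widest difference between groups, and for *C1qb*, which changed in the other direction between the diets in WT livers. Capitals mark matches on either strand to GAGGAA (the core bound by PU.1, the factor that specifies macrophages), TGGGAA (the core bound by RBPJ, which acts below Notch receptors), AGAACA (a glucocorticoid receptor half-site) and CACGTG (the E-box). No match in the printed windows overlapped another.
*Cd163*, chr6:124304401-124304650, plus strand: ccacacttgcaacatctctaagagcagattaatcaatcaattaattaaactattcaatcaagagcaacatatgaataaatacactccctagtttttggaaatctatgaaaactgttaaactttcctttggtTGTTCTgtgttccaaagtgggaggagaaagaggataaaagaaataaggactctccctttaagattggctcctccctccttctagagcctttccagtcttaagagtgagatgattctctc
*C1qb*, chr4:136886201-136886450, minus strand: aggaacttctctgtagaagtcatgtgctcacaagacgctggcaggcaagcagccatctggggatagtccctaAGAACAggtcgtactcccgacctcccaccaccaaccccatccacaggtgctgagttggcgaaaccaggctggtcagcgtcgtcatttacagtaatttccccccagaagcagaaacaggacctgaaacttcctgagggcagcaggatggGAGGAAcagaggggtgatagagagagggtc
The *Cd163* window held 1 match to AGAACA, 119 bases before the start, and the *C1qb* window held matches to AGAACA and GAGGAA at 178 and 30 bases before it. Among the 8 markers, 4 held GAGGAA, 2 held TGGGAA, 4 held AGAACA and 0 held CACGTG. A marker was counted where any of its promoters held a match (*Folr2* had more than 1), while the shares that follow are per promoter. Of all 32851 promoters of this length, 23.3% held GAGGAA, 21.6% held TGGGAA, 16.1% held AGAACA and 6.02% held CACGTG. A match describes letters in a window and not a bound site.

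Divided by exon length, *Cd5l* had the highest mean level in WT livers on WD, at 98.6 ± 53.0 CPM per kb (SD, n = 5). *C1qb* (66.3 ± 29.7 CPM per kb), *Clec4f* (54.7 ± 10.8), *C1qa* (50.1 ± 19.6) and *Vsig4* (26.6 ± 9.42) came next. *Marco* (10.1 ± 12.8 CPM per kb), *Folr2* (8.37 ± 2.05), *Timd4* (5.12 ± 3.36) and *Cd163* (3.47 ± 1.92) were the lowest, and neighbours in this order overlapped in their ranges over livers. *C1qb* took the first place in both groups on CDA-HFD, at 158 ± 47.5 CPM per kb in WT and 89.1 ± 48.2 in KO livers. *Cd163* was last among the 10 in WT livers on CDA-HFD, at 0.157 ± 0.111 CPM per kb.

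**Figure D1:**
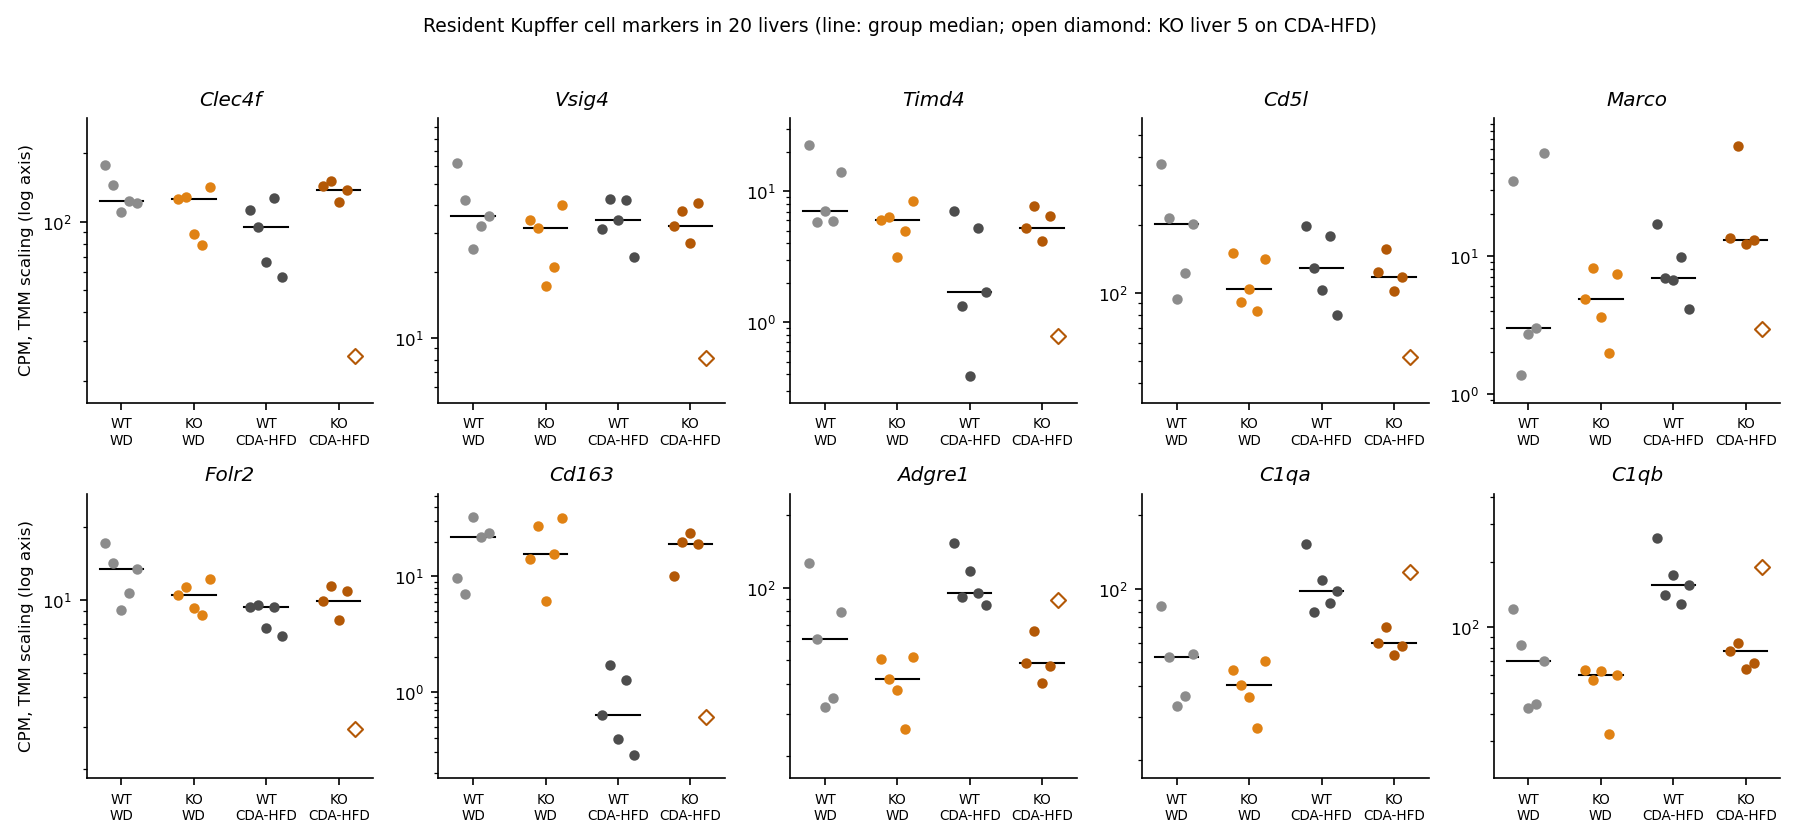
Level of each marker in each liver (CPM after TMM scaling, logarithmic axis), with livers 1 to 5 from left to right within a group and a line at the group median. *Cd163* lies at or below 1.69 CPM in the 5 WT livers on CDA-HFD and in KO liver 5 (open diamond), and between 10.1 and 23.7 CPM in the other KO livers on that diet.

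The first comparison asked whether deletion of *Cideb* in hepatocytes went with a difference in the markers on CDA-HFD. *Cd163* was higher in KO than in WT livers and *Adgre1* was lower, and the other 8 markers did not pass the test. In this comparison 8.19% of the 17204 genes tested were called higher and 7.29% lower, at an edgeR adjusted p under 0.05, so that 1 marker higher and 1 lower of 10 is near the share among all genes. The markers had a median log2 fold change of -0.12, against 0.00499 over all genes. Whole livers were sequenced, so fewer Kupffer cells and less marker RNA per cell cannot be told apart in any of these values.

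*Cd163*, the receptor that takes up haptoglobin bound to haemoglobin, stood at 0.635, 1.69, 0.387, 1.28 and 0.285 CPM in WT livers 1 to 5 on CDA-HFD. KO livers 1 to 5 had 10.1, 19.8, 23.7, 18.9 and 0.6 CPM. KO livers 1 to 4 were thus far above every WT liver, and KO liver 5 was within the WT range. The log2 fold change was 4.14 ± 0.80 (SE, 95% interval 2.39 to 5.89), a fitted 17.6-fold difference (adjusted p = 0.0137; exact two-sided permutation test of the means, p = 0.0317). Without KO liver 5 it was 4.47 ± 0.40 (adjusted p = 6.71e-05).

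*Adgre1*, an adhesion receptor and the classic surface antigen of mouse macrophages, stood at 153, 91.9, 117, 94.7 and 84.7 CPM in WT livers. In KO livers it was 48.7, 66.2, 40.4, 47.2 and 89.0 CPM. Only KO liver 5 reached into the WT range. The log2 fold change was -0.90 ± 0.23 (adjusted p = 0.0276; exact permutation p = 0.0159), and leaving out any of 6 other livers (WT 1 or 3, or KO 1, 2, 3 or 4) moved the adjusted p to between 0.0556 and 0.0724.

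*C1qa* and *C1qb* encode chains of C1q, the recognition part of the classical complement pathway, which in liver is made by macrophages. *C1qa* measured 153, 80.2, 109, 87.6 and 97.5 CPM in WT livers and 59.9, 69.8, 53.3, 58.1 and 117 CPM in KO livers. *C1qb* measured 259, 141, 174, 128 and 156 CPM in WT livers and 77.7, 84.9, 64.0, 68.4 and 189.7 CPM in KO livers. For both genes KO livers 1 to 4 were below every WT liver and KO liver 5 was inside the WT range. With that liver the log2 fold changes were -0.56 ± 0.23 for *C1qa* (adjusted p = 0.111) and -0.83 ± 0.31 for *C1qb* (adjusted p = 0.0835). Without it they were -0.81 ± 0.17 (adjusted p = 0.00367) and -1.22 ± 0.19 (adjusted p = 0.000796). DESeq2 called *C1qb* with all 10 livers as well (adjusted p = 0.0445).

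*Clec4f* stood at 112, 94.5, 66.4, 127 and 57.2 CPM in WT livers on CDA-HFD. KO livers had 143, 151, 122, 137 and 25.7 CPM. KO liver 5 was the lowest of the 10 livers and the other 4 KO livers were at the top of the WT range or above it. The log2 fold change was 0.34 ± 0.40 (adjusted p = 0.569), and 0.59 ± 0.21 without KO liver 5 (adjusted p = 0.0395). Other scalings, filters and models with no liver left out gave 0.098 to 0.35. Of 18 alternatives, only the 1 without KO liver 5 called *Clec4f*, and that fit was not repeated under other scalings.

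The same liver was the lowest of its group for 7 of the 10 markers and the highest for *Adgre1*, *C1qa* and *C1qb*. *Vsig4* stood at 8.16 CPM in KO liver 5 against 27.0 to 40.9 CPM in KO livers 1 to 4 and 23.3 to 42.4 CPM in WT livers. *Folr2* (a folate receptor found on resident macrophages of many tissues) was at 2.94 CPM against 8.25 to 11.4 CPM in KO livers 1 to 4. *Cd5l*, a secreted protein that macrophages make under control of the sterol receptor LXR, was at 52.1 CPM against 102 to 156 CPM. *Timd4* was at 0.78 CPM in KO liver 5 and between 4.19 and 7.80 CPM in the other KO livers, while WT livers on CDA-HFD ran from 0.387 to 7.05 CPM. None of these 4 genes passed the test with or without KO liver 5. Their log2 fold changes with it were -0.25 ± 0.34 for *Vsig4*, 0.01 ± 0.29 for *Folr2*, -0.32 ± 0.30 for *Cd5l* and 0.64 ± 0.69 for *Timd4*. Without it they were -0.01 ± 0.18, 0.23 ± 0.14, -0.14 ± 0.24 and 0.93 ± 0.57 in the same order.

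*Marco*, a scavenger receptor for bacteria and particles, stood at 17.1, 6.91, 6.74, 9.80 and 4.14 CPM in WT livers on CDA-HFD. KO livers had 13.4, 62.3, 12.2, 13.1 and 2.94 CPM. KO liver 2 was far above the rest and the groups overlapped. The log2 fold change was 1.22 ± 0.67 (adjusted p = 0.21), 1.51 ± 0.54 without KO liver 5 (adjusted p = 0.0414) and 0.22 without KO liver 2 (adjusted p = 0.785).

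Without KO liver 5, 3 markers were called higher (*Cd163*, *Clec4f* and *Marco*) and 3 lower (*Adgre1*, *C1qa* and *C1qb*) on CDA-HFD. In the same fit 19.6% of 17411 genes were called higher and 21.8% lower, so both marker counts are near the share among all genes. In 0 of 10 markers did all 5 KO livers lie outside the range of the 5 WT livers, which was the case for 9.57% of genes. KO liver 5 was also unlike the other KO livers in the summed levels of other lists. Its pan-macrophage sum was 2804 CPM against 849 to 1008 CPM in KO livers 1 to 4 and 2177 to 4068 CPM in WT livers. Its sinusoidal endothelial sum was 507 CPM against 840.4 to 995 CPM and 574 to 707 CPM, and its hepatocyte sum 37954 CPM against 74026 to 105160 CPM and 33319 to 72232 CPM. No gene of these lists was at 0 in every liver, and the part of those cells in the marker levels was not tested.

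**Figure D2:**
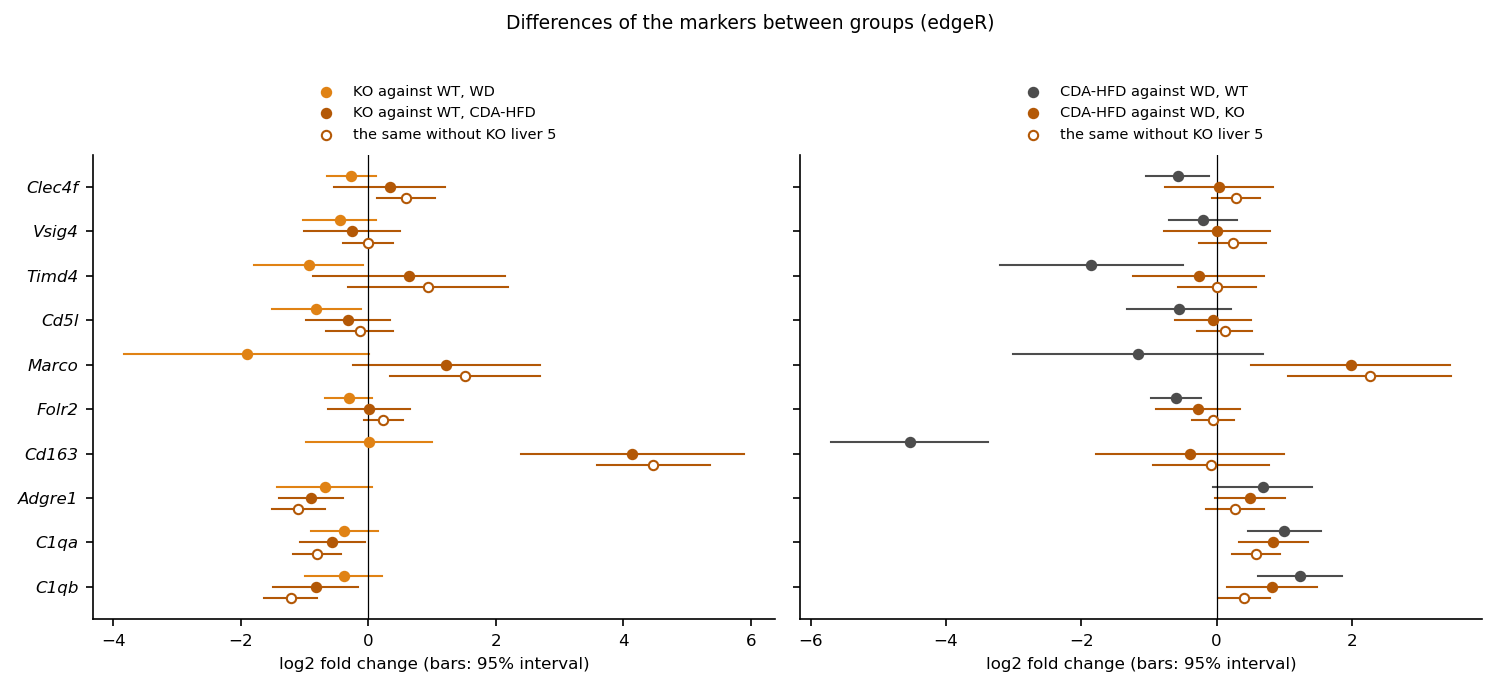
Log2 fold changes of the markers from edgeR with 95% intervals, KO against WT at left and CDA-HFD against WD at right, with open circles for fits without KO liver 5 on CDA-HFD. The interval of *Cd163* on CDA-HFD runs from 2.39 to 5.89, and in WT livers its diet interval runs from -5.70 to -3.38.

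On WD the same deletion went with no called marker. Of the 10 markers, 9 had log2 fold changes below 0, with a median of -0.42 against 0.0119 over all genes. Some other lists were shifted as far or further, with 0 called in each. The median was -0.57 for 14 pan-macrophage genes, -0.60 for 7 monocyte genes, -0.60 for 11 lipid-associated macrophage genes and -1.33 for 3 neutrophil genes. Shifts were smaller for MHC class II (-0.30), other Kupffer cell (-0.14), niche (-0.098) and dendritic cell genes (-0.092). The same held for the list of scavenger receptors, Fc receptors and genes for the uptake of dying cells (-0.13). Medians were above 0 for hepatocyte (0.083), endothelial (0.15), stellate (0.031), cholangiocyte (0.15) and lymphocyte genes (0.24). The part of the cells of these lists in the marker levels was not tested. The number called was 0 by edgeR and 0 by DESeq2, and 2 markers had an unadjusted edgeR p under 0.05. In this comparison 0.0126% of the 15848 genes tested were called higher and 0.0631% lower. The groups overlapped for each of the 10 markers, where 2.22% of genes had groups that did not.

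The 2 markers were *Timd4* and *Cd5l*. *Timd4* had 22.7, 5.85, 7.11, 5.95 and 14.0 CPM in WT livers on WD and 6.07, 6.38, 3.17, 5.01 and 8.46 CPM in KO livers. WT livers 1 and 5 lay above the others and the remaining 8 livers overlapped. The log2 fold change was -0.93 ± 0.39 (adjusted p = 0.429; exact permutation p = 0.167). *Cd5l* had 371, 214, 94.2, 122 and 202 CPM in WT livers and 149.8, 91.5, 104, 83.0 and 141 CPM in KO livers, with WT liver 1 far above the other 9. It differed by -0.82 ± 0.32 on the log2 scale (adjusted p = 0.405; exact permutation p = 0.103).

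*Marco* spread most within a group. WT livers on WD had 34.9, 1.38, 2.72, 2.98 and 55.7 CPM, with livers 1 and 5 far above the others, and KO livers had 4.87, 8.17, 3.63, 1.98 and 7.36 CPM. Its log2 fold change was -1.91 ± 0.88 (adjusted p = 0.468). *Cd163* ran from 7.05 to 32.5 CPM in WT livers and from 6.06 to 31.9 CPM in KO livers. The difference was 0.01 ± 0.45 on the log2 scale (95% interval -0.98 to 1.00). *Clec4f* had 177, 145, 110.3, 123 and 121 CPM in WT livers and 125, 127, 87.9, 79.0 and 142 CPM in KO livers, and differed by -0.27 ± 0.17 on the log2 scale (adjusted p = 0.608). *Vsig4* ran from 25.2 to 61.9 CPM in WT livers and from 17.1 to 40.1 CPM in KO livers (log2 fold change -0.45 ± 0.26), and *Folr2* from 9.08 to 17.2 CPM and from 8.66 to 12.3 CPM (-0.31 ± 0.17). The highest *Adgre1* level was 127 CPM among WT and 51.8 CPM among KO livers (-0.69 ± 0.34). *C1qa* (-0.38 ± 0.24) and *C1qb* (-0.39 ± 0.28) lay on the same side of 0. WT liver 1 had the highest level of the 5 WT livers on WD for 8 of the 10 markers, all but *Marco* and *Cd163*. Without that liver the log2 fold changes were -0.13 for *C1qa*, -0.12 for *C1qb*, -0.32 for *Adgre1*, -0.47 for *Cd5l*, -0.50 for *Timd4*, -0.23 for *Vsig4*, -0.18 for *Folr2* and -0.15 for *Clec4f*. *Marco* was at -1.02 without WT liver 5, its highest WT liver. Both livers were singled out in these same data as the highest, so leaving them out favours values nearer 0 and is a description only.

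The difference of the KO effect between the diets was tested as an interaction over the 20 livers. No marker was called by edgeR, where 0.331% of 17804 genes were called higher and 0.225% lower. *Cd163* had the smallest adjusted p, with a difference of log2 fold changes of 4.14 ± 0.94 (95% interval 2.17 to 6.12; adjusted p = 0.0508). Over the other fits the adjusted p of *Cd163* lay between 0.00228 and 0.116, and 6 of 26 called it, among them DESeq2 and the fits without KO liver 5 on CDA-HFD (4.47 ± 0.71, adjusted p = 0.00228), without WT liver 1 on WD (adjusted p = 0.0469) or without KO liver 5 on WD (adjusted p = 0.0496). An unadjusted p under 0.05 was reached by *Cd163* and *Marco*, for which the difference was 3.14 ± 1.19 (adjusted p = 0.223).

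The second question was how the markers differed between the diets in livers that kept *Cideb*. In WT livers, 4 markers were lower on CDA-HFD (*Cd163*, *Timd4*, *Folr2* and *Clec4f*) and 2 were higher (*C1qa* and *C1qb*). In this comparison 25.9% of 16726 genes were called higher and 25.2% lower. *Cd163* fell from a mean of 18.9 ± 10.5 CPM (SD, n = 5) on WD to 0.855 ± 0.606 CPM, and every CDA-HFD liver was below every WD liver. The log2 fold change was -4.54 ± 0.53 (adjusted p = 5.73e-05; exact permutation p = 0.00794, the smallest that 5 livers against 5 can give). *C1qb* rose by 1.24 ± 0.29 on the log2 scale (adjusted p = 0.00361) with no overlap, and *C1qa* by 1.00 ± 0.25 (adjusted p = 0.00531). Groups without overlap were found for these 2 markers, *Cd163* and *C1qb*, of 10, and for 37.1% of genes.

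*Timd4* in WT livers changed by -1.86 ± 0.62 on the log2 scale between the diets (adjusted p = 0.0256). On CDA-HFD its 5 values were 7.05, 1.34, 0.387, 5.24 and 1.71 CPM, so that liver 1 reached into the WD range and the other 4 were below it. The call was lost without WT liver 1 or 5 on WD or WT liver 2 or 5 on CDA-HFD (adjusted p between 0.0524 and 0.0679). *Folr2* had 17.2, 14.2, 9.08, 10.7 and 13.5 CPM on WD and 9.41, 9.52, 7.68, 9.40 and 7.09 CPM on CDA-HFD, with a log2 fold change of -0.60 ± 0.17 (adjusted p = 0.0119). *Clec4f* changed by -0.57 ± 0.21 on the log2 scale (adjusted p = 0.041), and leaving out WT liver 1, 2, 4 or 5 on WD or WT liver 2, 3 or 5 on CDA-HFD moved its adjusted p to between 0.0502 and 0.105. The calls of *Clec4f* and *Folr2* rested on the scaling: with library size alone their log2 fold changes were -0.17 (adjusted p = 0.511) and -0.20 (adjusted p = 0.412). That scaling moved the median of all genes by 0.421, and *Cd163* stayed at least 4.09 lower under each alternative that tested it. The remaining 4 markers did not pass in WT livers: *Adgre1* differed by 0.69 ± 0.34 (adjusted p = 0.107, and 0.00855 without WT liver 1 on WD), *Vsig4* by -0.20 ± 0.23, *Cd5l* by -0.56 ± 0.35 and *Marco* by -1.16 ± 0.85. Single WD livers moved these: *Cd5l* was at -0.22 without WT liver 1 and *Marco* at -0.26 without WT liver 5. For *Adgre1*, *Cd5l* and *Marco* the WD liver left out was the highest of its group, which favours a higher log2 fold change. *Marco* was at -0.10 with the replicate number as a block.

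In KO livers 1 marker was called between the diets, *C1qa*, which was higher on CDA-HFD (log2 fold change 0.84 ± 0.23, adjusted p = 0.0322). Among 16387 genes 9.19% were called higher and 7.85% lower. *C1qa* had 46.4, 40.4, 36.0, 26.9 and 50.8 CPM on WD, below each KO liver on CDA-HFD. *C1qb* had 63.8, 56.9, 62.8, 32.2 and 60.1 CPM on WD and did not overlap between the diets either, which was so for 15.2% of genes, and its log2 fold change was 0.82 ± 0.31 (adjusted p = 0.086), or 0.41 ± 0.18 without KO liver 5 on CDA-HFD (adjusted p = 0.135). *Cd163* differed by -0.40 ± 0.64 between the diets in KO livers (95% interval -1.79 to 0.99; adjusted p = 0.709). *Marco* differed by 1.99 ± 0.67 (adjusted p = 0.0628), by 2.26 ± 0.55 without KO liver 5 (adjusted p = 0.0166) and by 0.98 without KO liver 2 on CDA-HFD (adjusted p = 0.185). The resident markers *Clec4f* (0.03 ± 0.37), *Vsig4* (0.01 ± 0.36), *Timd4* (-0.27 ± 0.44), *Folr2* (-0.27 ± 0.29) and *Cd5l* (-0.05 ± 0.25) did not pass either, nor did *Adgre1* (0.49 ± 0.24). Without KO liver 5 on CDA-HFD, *Clec4f* was at 0.29, *Vsig4* at 0.24, *Timd4* at 0.00926, *Folr2* at -0.05, *Cd5l* at 0.12, *Adgre1* at 0.28, *Cd163* at -0.09 and *C1qa* at 0.58, of which *C1qa* passed. Leaving out KO liver 2, 3 or 4 on WD or KO liver 2 on CDA-HFD ended the call of *C1qa*.

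Each marker was also set against *Csf1r* in the same liver, since *Csf1r* encodes the growth factor receptor that macrophages depend on. The difference is nearly free of the scaling between livers where counts are high. At low counts the prior count of 2 in log2 CPM raises it, as for *Cd163* and *Timd4* in WT livers on CDA-HFD (from 6 and 7 counts per liver). Relative to *Csf1r*, *Clec4f* lay between -0.37 and 0.28 on the log2 scale in the 10 WD livers and between -2.00 and -0.73 in WT livers on CDA-HFD. KO livers 1 to 4 on CDA-HFD lay between -0.10 and 0.14, inside the WD range, and KO liver 5 at -2.99. For *Cd163* the ranges were -4.54 to -1.48 in WD livers, -8.98 to -6.80 in WT livers on CDA-HFD and -3.67 to -2.22 in KO livers 1 to 4, with KO liver 5 at -8.11. For *Folr2* they were -3.72 to -3.00, -5.09 to -4.40 and -3.74 to -3.69, with KO liver 5 at -6.06.

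*Timd4* followed the same order, at -4.80 to -3.33 in WD livers, -8.98 to -5.29 in WT livers on CDA-HFD, -4.68 to -4.27 in KO livers 1 to 4 and -7.80 in KO liver 5. For these 4 markers every WT liver on CDA-HFD was below every WD liver in this ratio, as were 21% of all genes tested, and *Csf1r* was itself higher on CDA-HFD in WT livers (log2 fold change 0.72, adjusted p = 0.0215). KO livers 1 to 4 and WT livers on CDA-HFD did not overlap in the ratio for 7 of the 10 markers, which is near the 62.8% of all genes for which the same was found, and overlapped for *Cd5l*, *Adgre1* and *C1qa*. *Adgre1* ran from -1.59 to -0.85 in WD livers and from -1.64 to -1.09 on CDA-HFD with both vectors, so its level moved with that of *Csf1r*. *Csf1r* itself was at 70.4 to 229 CPM in WD livers, 204 to 326 CPM in WT livers on CDA-HFD, 111 to 153 CPM in KO livers 1 to 4 and 205 CPM in KO liver 5. Its exons overlap those of *Hmgxb3* on the other strand, which had 264 to 665 counts per liver.

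**Figure D3:**
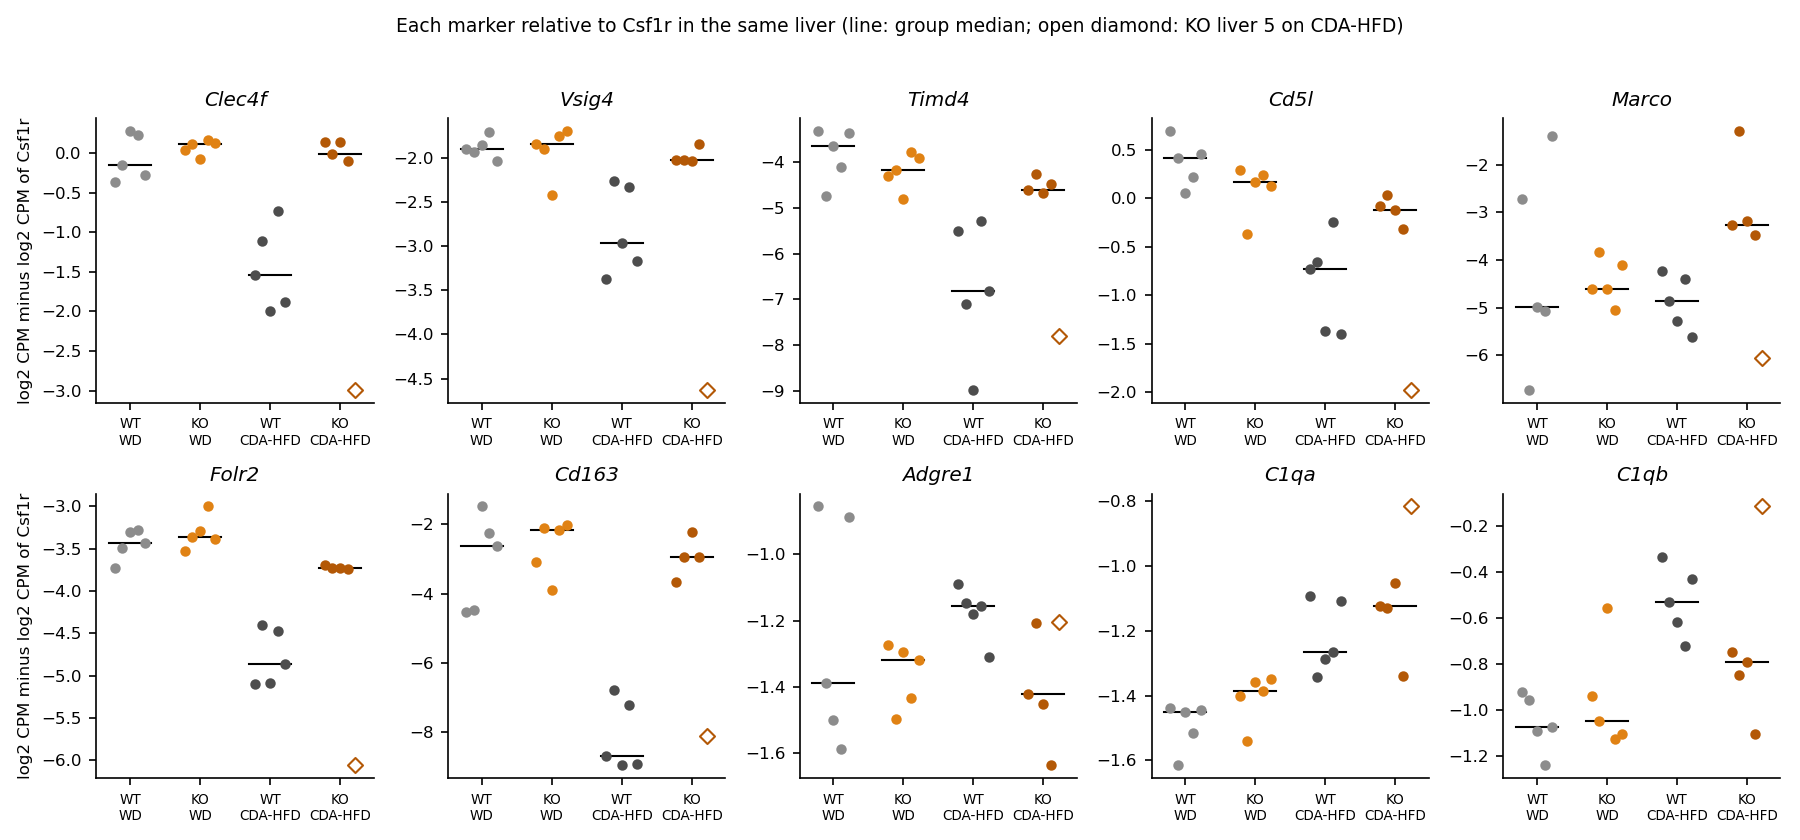
Log2 CPM of each marker minus that of *Csf1r* in the same liver, by group, with a line at the median and an open diamond for KO liver 5 on CDA-HFD. *Clec4f* lies between -2.00 and -0.73 in WT livers on CDA-HFD and between -0.10 and 0.14 in KO livers 1 to 4.

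Within groups, most but not all pairs of markers varied in the same direction from liver to liver. Over the 20 livers, Pearson's r of deviations from the group means in log2 CPM was above 0 for 34 of 45 pairs of markers, with a median of 0.548. Livers of a group share their diet and vector but not their library, and these values are descriptions with no test. The share of pairs above 0 among all genes was not measured, so this count does not set the markers apart from other genes. Among *Clec4f*, *Vsig4* and *Folr2* r was between 0.912 and 0.944, and between 0.794 and 0.872 without KO liver 5 on CDA-HFD, where *Cd5l* with *Folr2* stood at 0.878. Among *Adgre1*, *C1qa* and *C1qb* r was at least 0.90 in either case. Between those sets r was -0.28 to 0.16 over 20 livers and 0.467 to 0.825 over the 19 livers without that library, so that the separation of the sets rested on that liver. *Cd163* had r between 0.424 and 0.759 with *Clec4f*, *Vsig4*, *Timd4*, *Marco* and *Folr2* over 20 livers, and between 0.0216 and 0.305 without it. With *Adgre1*, *C1qa* and *C1qb* its r was -0.69 to -0.41 over 20 livers and -0.46 to -0.23 without it.

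**Figure D4:**
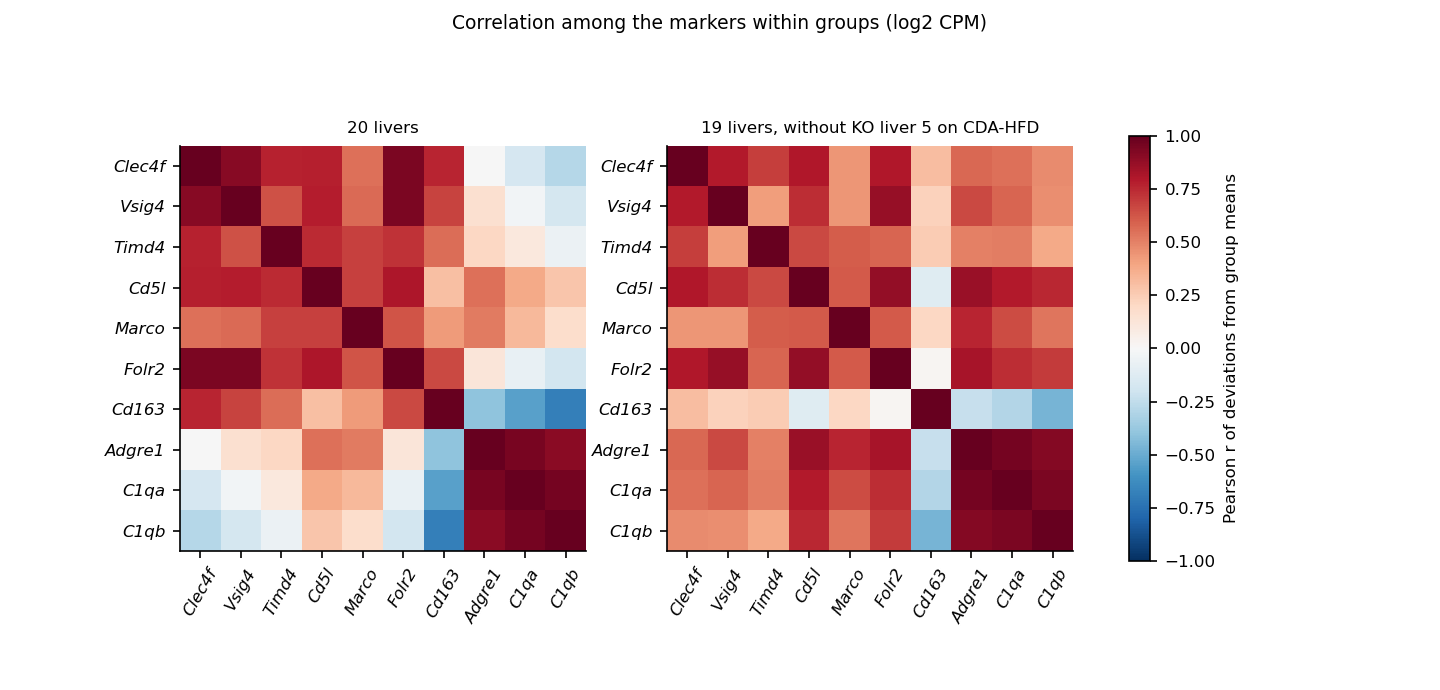
Pearson's r between markers of their deviations from group means (log2 CPM), over 20 livers at left and over 19 livers without KO liver 5 on CDA-HFD at right. The number of pairs above 0 is 34 of 45 at left and 41 of 45 at right.

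Of 12293 genes compared (mean log2 CPM 1 or more), those whose deviations were most like *Clec4f* over the 20 livers were *Flt4* (r = 0.892), *Cdh5* (0.882), *Kdr* (0.86), *Nr1h3* (0.858) and *Cyp4b1* (0.853). Without KO liver 5 on CDA-HFD these r values lay between 0.516 and 0.706. *Flt4*, *Cdh5* and *Kdr* are genes of endothelial cells, and *Nr1h3* encodes LXR alpha, which is highly expressed in Kupffer cells. Those most like *C1qa* were *Syk* (0.976), *Ifi30* (0.969), *Vav1* (0.967), *Pirb* (0.965) and *Slc11a1* (0.963), genes of leukocytes and macrophages, with r between 0.954 and 0.969 without that liver.

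Other Kupffer cell genes had calls in both directions. Of 15 tested on CDA-HFD, 1 was higher in KO livers and 2 were lower, with a median log2 fold change of -0.19. These counts are near the 8.19% of all genes called higher and 7.29% called lower. *Kcna2* (a potassium channel) was higher by 1.24 ± 0.34 (adjusted p = 0.035). *Hmox1*, the haem-degrading enzyme, differed by -1.22 ± 0.12 (adjusted p = 0.00158) and *Cd207*, the lectin langerin, by -1.55 ± 0.42 (adjusted p = 0.0341). In WT livers 1 of the 15 was higher on CDA-HFD than on WD and 5 were lower, and *Kcna2* was among the latter at -2.03 ± 0.37 (adjusted p = 0.000885). Of all genes, 25.9% were called higher between these groups and 25.2% lower. On WD 0 of the 15 were called between KO and WT livers.

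Genes of macrophages in general and of recruited macrophages had calls in 1 direction. On CDA-HFD 8.19% of all genes were called higher in KO livers and 7.29% lower. Of 14 pan-macrophage genes 0 were higher and 9 were lower, with a median log2 fold change of -1.001. Examples were *Cd14* (-1.43 ± 0.31, adjusted p = 0.0178), *Tyrobp* (-1.69 ± 0.38, adjusted p = 0.019) and *Cd68* (-1.53 ± 0.35, adjusted p = 0.0204). Of 10 monocyte and infiltrating macrophage genes 0 were higher and 5 lower (median -1.05), with *S100a4* at -2.13 ± 0.47, *Itgam* at -1.92 ± 0.45 and *Chil3* at -2.23 ± 0.55. Of 11 lipid-associated macrophage genes 0 were higher and 8 lower (median -1.94), with *Mmp13* at -1.94 ± 0.23, *Lpl* at -2.30 ± 0.46 and *Mmp12* at -2.75 ± 0.63. Between the diets in WT livers 25.9% of all genes were called higher on CDA-HFD. Of the genes listed here, 13 of the 14, 9 of the 10 and 11 of the 11 were. Of the markers, *Adgre1* was called lower beside them in the first of these comparisons, and *C1qa* and *C1qb* were called higher in the second. Without a call, *C1qa* (-0.56) and *C1qb* (-0.83) also lay below 0 in the first and *Adgre1* (0.69) above 0 in the second. Of the 10 markers, 5 lay below 0 and 5 above it in the first, and 3 above 0 and 7 below it in the second. The summed level of the lipid-associated genes was 76.7 to 368 CPM in WT livers on WD and 108 to 239 CPM in KO livers on WD. It was 1433 to 3270.4 CPM in WT livers on CDA-HFD, 178 to 267 CPM in KO livers 1 to 4 and 1572 CPM in KO liver 5.

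**Figure D5:**
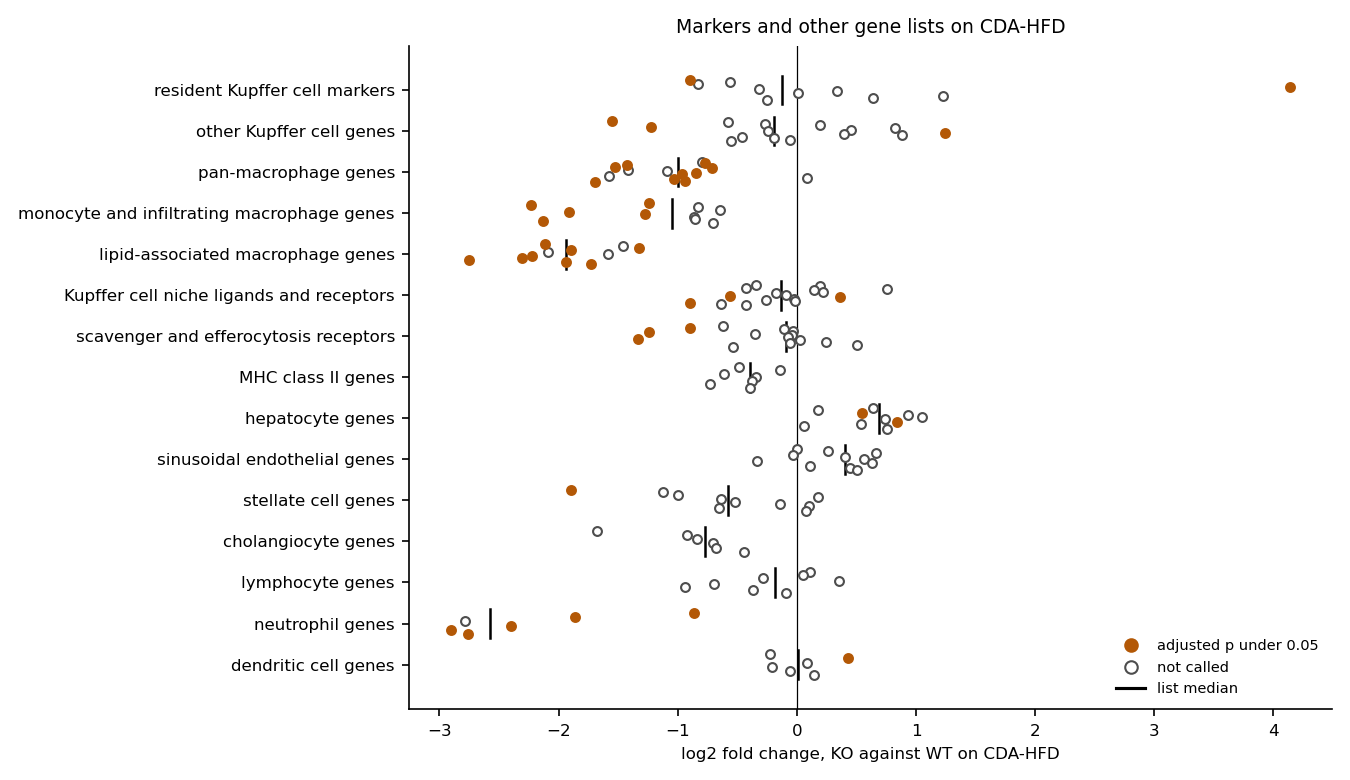
Log2 fold change of each gene, KO against WT on CDA-HFD, for the markers and 14 other lists, filled where the edgeR adjusted p was under 0.05 and with a bar at the list median. The median of the markers is -0.12, that of the pan-macrophage genes -1.001 and that of the lipid-associated macrophage genes -1.94.

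Of 16 genes for the ligands and receptors of the Kupffer cell niche, 1 was higher and 2 were lower in KO livers on CDA-HFD. These counts are near the shares among all genes, 8.19% called higher and 7.29% lower. *Notch1* was higher by 0.36 ± 0.09 (adjusted p = 0.0223), while *Tgfb1* (-0.90 ± 0.19, adjusted p = 0.0167) and the Notch ligand *Jag1* (-0.56 ± 0.14, adjusted p = 0.0265) were lower. Between the diets in WT livers 7 were higher on CDA-HFD and 3 lower. Of all genes, 25.9% were called higher there and 25.2% lower. *Csf1*, the growth factor for *Csf1r*, rose by 1.33 ± 0.14 and *Gdf2*, the ligand BMP9, by 1.44 ± 0.21. *Tgfbr1* (1.11 ± 0.10), *Tgfb1* (0.89 ± 0.18), *Acvrl1* (0.63 ± 0.16), *Rbpj* (0.42 ± 0.07) and *Notch2* (0.35 ± 0.08) were also higher. The Notch ligands *Dll4* (-0.97 ± 0.20) and *Dll1* (-0.49 ± 0.16) and the receptor *Notch1* (-0.59 ± 0.08) were lower, each of these 10 at an adjusted p of 0.0218 or less. In KO livers 4 were higher on CDA-HFD and 1 was lower: *Csf1* (1.11 ± 0.20), *Gdf2* (1.10 ± 0.21), *Notch2* (0.44 ± 0.11) and *Eng* (0.27 ± 0.08) rose and *Dll4* fell (-1.18 ± 0.24). The shares of all genes called between the diets in KO livers were 9.19% higher and 7.85% lower. On WD, and in the interaction, 0 of the 16 were called by edgeR.

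A further list held scavenger receptors, Fc receptors and genes for the uptake of dying cells, which Kupffer cells share with other cells. It was mostly without a call on CDA-HFD. Of 14 genes tested, 0 were higher in KO livers and 3 lower, each at an adjusted p of 0.0342 or less. These were *Msr1* (-1.34 ± 0.12), *Cd36* (-0.89 ± 0.15) and the Fc receptor gene *Fcgr3* (-1.24 ± 0.34). Neither higher nor lower calls were made among 7 MHC class II genes, of which *H2-DMb1*, *H2-DMa* and *H2-Aa* had the smallest adjusted p values (0.113, 0.158 and 0.191). Of 10 hepatocyte genes 2 were higher, *Hnf4a* (0.84 ± 0.17) and *Asgr1* (0.54 ± 0.13), and the next was *Cps1* (0.94 ± 0.34, adjusted p = 0.0816). Of 11 sinusoidal endothelial genes none was called, with a median of 0.40 and *Oit3* nearest the threshold (0.63 ± 0.20, adjusted p = 0.0511), followed by *Ptprb* and *Kdr*. Of 10 stellate cell genes *Acta2* alone was called (-1.90 ± 0.33, lower), with *Dcn* and *Col3a1* next at adjusted p values of 0.0972 and 0.113. Neutrophil genes had 5 of 6 lower, among them *S100a8* (-2.90 ± 0.39), *S100a9* (-2.76 ± 0.45) and *Retnlg* (-2.40 ± 0.51), dendritic cell genes had 1 of 6 higher (*Clec9a*, 0.43 ± 0.12), and no call was made among 6 cholangiocyte and 8 lymphocyte genes. Without KO liver 5 more genes were called: 19.6% of all genes higher and 21.8% lower, against 8.19% and 7.29% with it. In that fit 7 of 11 endothelial and 6 of 10 hepatocyte genes were higher. Lower were 6 of 7 MHC class II, 6 of 10 stellate, 6 of 6 cholangiocyte and 6 of 6 neutrophil genes. The same fit called 13 pan-macrophage, 9 monocyte and 11 lipid-associated genes lower, and, higher and lower, 4 and 4 other Kupffer cell genes and 3 and 7 niche genes. The part of these cell types in the marker levels was not tested.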

How the data were processed

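The authors deposited 1 table of raw read counts per gene for 20 livers (1 column each), with mm10 named as the genome in the submitters' processing notes. The aligner, the counter and whether counting used the strand are not given in the sources used here, and the labels and the published methods name different library kits. The 5 entries for reads not on a gene held 50.3 to 57.0% of the reads tallied in each liver and were left out. Groups came from the sample titles and characteristics. The labels list 5 livers per group as separate samples and state no more on their independence, so p-values measure only the spread between these livers.

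Counts were filtered (filterByExpr), scaled (TMM) and tested for each comparison on its own livers with edgeR 4.0.16 (quasi-likelihood F test, R 4.3.3, limma 3.58.1), and the interaction on all 20. P-values were adjusted by Benjamini-Hochberg over all genes tested, and a gene was called at an adjusted p under 0.05. The SE is the log2 fold change divided by the root of F. Single values were also compared by an exact two-sided permutation test of group means, unadjusted. Log2 CPM used a prior count of 2. Alternatives were DESeq2 1.42.0, other scalings and filters, a replicate block, a fit of all livers and leaving out each liver. edgeR's current quasi-likelihood method was added after the data had been seen. The fits were tested on simulated counts. Coordinates and exon lengths came from GENCODE M21 and promoters from RefSeq, and figures were drawn with matplotlib 3.10.9.

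The 10 markers and all gene lists were chosen with earlier results of these data known. Genes named from each other list were at most 3, those with the smallest adjusted p KO against WT on CDA-HFD, and from the niche list each gene called in any comparison. Named as most like *Clec4f* or *C1qa* were the 5 genes with the highest r. *Csf1r* is named as the reference of the ratios. Livers with the same number were not treated as pairs, since the labels state no pairing. The correlation between same-numbered livers in deviations from group means ranged from -0.268 to 0.284 on WD and from -0.367 to 0.347 on CDA-HFD. Values of this kind cannot exclude a pairing. In 40 pairs of livers within groups, no pair agreed within sampling noise (chi-square per gene 6.95 or more).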

Additional observations from a re-analysis of the deposited data

Results flagged for a closer look

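Of the 40 combinations of a marker and a group, 5 had a liver that stood off: its gap to the nearest was more than 0.71 of the group's whole range (Dixon's test), which chance gives in about 5% of cases, or 2 of 40. KO liver 5 on CDA-HFD accounted for 3 of the 5. Its *Clec4f* level was 25.7 CPM against 122 to 151 CPM in the other livers of its group (0.768 of the range). Its *C1qa* level was 117 CPM against 53.3 to 69.8 CPM (0.74 of the range), and its *C1qb* level was 189.7 CPM against 64.0 to 84.9 CPM (0.834 of the range). *Marco* in KO liver 2 on CDA-HFD was at 62.3 CPM against 2.94 to 13.4 CPM (0.824 of the range). *C1qb* in KO liver 4 on WD was at 32.2 CPM against 56.9 to 63.8 CPM (0.782 of the range).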

How the results depend on the processing

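*Cd163* was called in the same direction in 17 of 17 alternatives, both KO against WT on CDA-HFD (log2 fold change 3.88 to 4.54) and between the diets in WT livers (-4.94 to -4.09). *C1qa* and *C1qb* in WT livers were called in 18 of 18. With at least 10 counts in every liver, *Cd163* and *Timd4* were not tested, and 1 marker was called KO against WT on CDA-HFD (in place of 2) and 3 between the diets in WT livers (in place of 6). Between the diets in KO livers, library size alone called 3 markers, DESeq2 2 and no filter 2, in place of 1. In the interaction, DESeq2, no filter and the current quasi-likelihood method each called 1, in place of 0. Leaving out 1 liver at a time gave 0 called KO against WT on WD in each of 10 fits, 1 to 6 on CDA-HFD (6 without KO liver 5), 4 to 6 between the diets in WT livers, 0 to 2 in KO livers and 0 to 1 in the interaction. Library size alone moved the median of all genes by 0.421 and 0.251 between the diets in WT and KO livers, by -0.187 KO against WT on CDA-HFD and by -0.152 in the interaction. With TMM that median was within 0.0191 of 0 in each comparison, so the values given above are relative to it. Apart from the fit without KO liver 5, shares of all genes called under the alternatives, the replicate block included, are not given here. The counts of called markers under them therefore do not set the markers apart from other genes.

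Signs that changed belonged to markers near 0. KO against WT on CDA-HFD, *Folr2* was at -0.23 with library size alone, -0.00906 with the strict filter and -0.11 to 0.23 when 1 liver was left out. *Cd163* on WD ran from -0.26 to 0.29 when 1 liver was left out. In WT livers between the diets *Vsig4* was at 0.18 with library size alone and -0.33 to 0.0137 when 1 liver was left out. In KO livers between the diets, *Cd5l* was at 0.17 with library size alone and *Vsig4* at -0.00184 with DESeq2. Leaving out 1 liver there gave -0.0804 to 0.29 for *Clec4f*, -0.14 to 0.24 for *Vsig4*, -0.50 to 0.00926 for *Timd4* and -0.21 to 0.12 for *Cd5l*. In the interaction *Vsig4* ran from -0.0166 to 0.45. The cause was not tested.

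With the replicate number as a block, 0 markers were called KO against WT on WD, 2 on CDA-HFD, 7 between the diets in WT livers, 1 in KO livers and 0 in the interaction. The labels do not state that the numbers pair the livers. Under the block *Folr2* was at -0.10 KO against WT on CDA-HFD, *Clec4f* at -0.0790 and *Vsig4* at -0.0481 between the diets in KO livers, and *Adgre1* was called between the diets in WT livers (0.83, adjusted p = 0.0233).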
